A study of Mus musculus with 12 samples.

Results

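Conjugation makes lipid-soluble compounds easier to excrete by joining them to a polar group. UDP-glucuronosyltransferases (UGTs) add glucuronic acid, cytosolic sulfotransferases (SULTs) add sulfate from the donor PAPS, and glutathione S-transferases (GSTs) and the related microsomal enzymes (MGSTs) join electrophiles to glutathione. The gut epithelium uses these reactions on bilirubin, steroids, dietary phenols, drugs and products of lipid peroxidation. The genes described here were taken by symbol: those of the Ugt1a, Ugt2a and Ugt2b families, the Sult genes, the alpha, mu, theta, pi, omega, kappa and zeta GST classes and Mgst1, Mgst2 and Mgst3. Of 73 such symbols, 8 were pseudogenes and 17 protein-coding genes had fewer than 10 counts in all (Ugt1a8, Ugt1a9, Ugt1a10, Ugt2a1, Ugt2a2, Ugt2b37, the 8 Sult2a genes, Sult3a1, Sult3a2 and Gstt4). This left 48 genes of the 54532 counted: 6 UGT1A, 7 UGT2, 11 SULT, 21 GST and 3 MGST genes.

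The counts came from colon RNA of male C57BL/6 mice, 6 weeks old before 1 week of adaptation, in 4 groups of 3 libraries. Con mice are labelled untreated, and the study's methods give them vehicle by gavage. DSS mice drank 3% (w/v) dextran sulfate sodium, which injures the colon lining, for 5 days, and also received vehicle. UA+DSS mice received ursolic acid (UA), a plant triterpenoid, at 200 mg/kg by daily gavage for 7 days from 1 day before the DSS, and DSS+UA mice received the same dose for 4 days from 3 days after the DSS began. The lengths of treatment are those of the methods, and the study's discussion gives others. RNA came from 3 colon tissues of each group by the methods, with no word on how the 3 were chosen. Neither source says which stretch of the colon was taken. The p-values measure only the spread between these libraries.

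The 6 UGT1A genes lie in a single cluster on chromosome 1 of GRCm38, where each gene has its own first exon and all share the exons that follow. The shared exons begin at chr1:88215044 on the plus strand and are 1311 bases long in the Ugt1a1 and Ugt1a6a transcripts, against first exons of 913 and 954 bases. The 3 UGT1A genes with most counts are shown at their junction between exons 1 and 2, because a read that lies wholly in the capitals can come from any of them (lower case, the last 30 bases of the gene's own first exon; capitals, the first 30 bases of shared exon 2; GENCODE transcripts, 5′ to 3′).
Ugt1a1: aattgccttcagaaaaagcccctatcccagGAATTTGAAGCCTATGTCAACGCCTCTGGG
Ugt1a6a: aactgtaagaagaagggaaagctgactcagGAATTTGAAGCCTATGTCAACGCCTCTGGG
Ugt1a7c: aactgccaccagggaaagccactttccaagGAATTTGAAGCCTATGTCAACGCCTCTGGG
The 30 bases before the junction differ between the 3 genes and the 30 after it are identical. How the counting divided reads from the shared exons is not given in the sources used here, so the split of counts among UGT1A genes is uncertain. Over all 50-base stretches of their transcripts, 15 of the 48 genes shared at least 10% with another gene. The shares were 80.2% for Ugt1a1, 52.1% for Ugt1a6a, 53.7% for Ugt1a7c, 90.5% for Gsta1 (chiefly with Gm3776 and Gsta2), 54.3% for Gstp2 and 33.7% for Gstp1 (with each other and the processed pseudogene Gstp-ps, which holds 6649 counts), 41.7% for Ugt2b5 and 37.4% for Ugt2b38, and their values carry the same uncertainty. Antisense Gm20528 overlaps the UGT1A cluster, and 4933431E20Rik overlaps Gstm5 on the other strand. The sources used here do not say whether strand was used.

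Several other members are neighbours as well. The UGT2 genes lie on chromosome 5, from Ugt2b34 (chr5:86889767-86906937) to Ugt2b38 (chr5:87409942-87424203), beside Sult1b1 (chr5:87513339-87538195) and Sult1d1 (chr5:87554645-87569027). The 7 GST mu genes lie together on chromosome 3, from Gstm5 (chr3:107895821-107898686) to Gstm4 (chr3:108040408-108044894), and the 3 GST pi genes on chromosome 19, from Gstp1 (chr19:4035407-4037985) to Gstp3 (chr19:4057477-4059569). Sult1a1 is at chr7:126672865-126676432, Gsta1 at chr9:78230656-78242684 and Mgst3 at chr1:167371966-167393841.

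Library totals ran from 15566216 to 19498383 counts, and the 48 genes took 0.364 to 0.415% of the counts in Con, 0.140 to 0.217% in DSS, 0.358 to 0.456% in UA+DSS and 0.241 to 0.311% in DSS+UA. Several libraries stood apart. DSS 2 and DSS+UA 3 held small-intestinal transcripts (Apoa4 at 306 and 66.6 CPM, against at most 0.50 CPM in the other 10 libraries). Of the 8 genes listed, Defa24, Lct, Lyz1, Mptx2 and Sis were also highest in these libraries. Fabp2 (396 and 116 CPM, against 952 in Con 2) and Fabp6 (0.351 and 14.3 CPM, against 36.9 in DSS+UA 2) were not. DSS 3 held exocrine pancreas transcripts (6 genes summing to 12460 CPM, against 30.7 to 554 elsewhere). DSS 2 had 17950 CPM of 7 neutrophil genes, against 887 and 984 in DSS 1 and DSS 3. A position score, taken from Hox genes that mark places along the gut, separated the libraries too. It is the mean log2 CPM of 5 genes of the rectal end (Hoxb13 and the Hoxd genes 10 to 13) less the mean of 6 genes of the other end, Hoxb3 to Hoxb8. It was 5.53, -3.03 and -1.83 in Con, 3.10, 1.35 and 0.37 in DSS, -4.88, -5.70 and -4.16 in UA+DSS and 4.11, 4.47 and 5.06 in DSS+UA. All 3 UA+DSS libraries lay below the other 9 and all 3 DSS+UA libraries lay above those of DSS, so UA treatment and the stretch of colon that was sampled cannot be told apart. The 5 genes of the rectal end did not all go the same way. Hoxd10 was at 3.02, 5.75 and 0.851 CPM in UA+DSS, above Con 2 and Con 3 (0.111 and 0.107). Hoxd11 was at 2.18, 2.62 and 0.744 CPM in UA+DSS, against 0 and 0.0535 there. Hoxb13, Hoxd12 and Hoxd13 were not higher in UA+DSS than in Con 2 and Con 3. The 12 general epithelial markers summed to 14040 to 19390 CPM in Con, 7888 to 12790 in DSS, 15080 to 18200 in UA+DSS and 17090 to 25940 in DSS+UA. In such bulk tissue, fewer cells of a type and less RNA per cell cannot be told apart.

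Per kilobase of exon sequence, the highest Con levels were those of Mgst3 (429.5 CPM per kb), which has leukotriene C4 synthase and peroxidase activity, and Sult1a1 (331), the main phenol sulfotransferase. Gsto1 (178), Gstm1 (173), Sult1d1 (151) and Ugt2b34 (121) followed. The SDs of these genes were 12.4 to 39.9% of the mean over 3 libraries. Mgst3 and Sult1a1 overlapped, as did neighbours from Gsto1 down, while every Con library held more Sult1a1 than Gsto1 per kb. In DSS the order was another. Mgst3 (212 CPM per kb) and Gsto1 (167) led, while Sult1a1 stood at 27.6, Sult1d1 at 29.6 and Ugt2b34 at 32.6. The range ran down to 0.0287 CPM per kb for Sult1e1, the estrogen sulfotransferase, in Con, where Ugt2a3 and Sult6b2 had no counts.

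**Figure D1:**
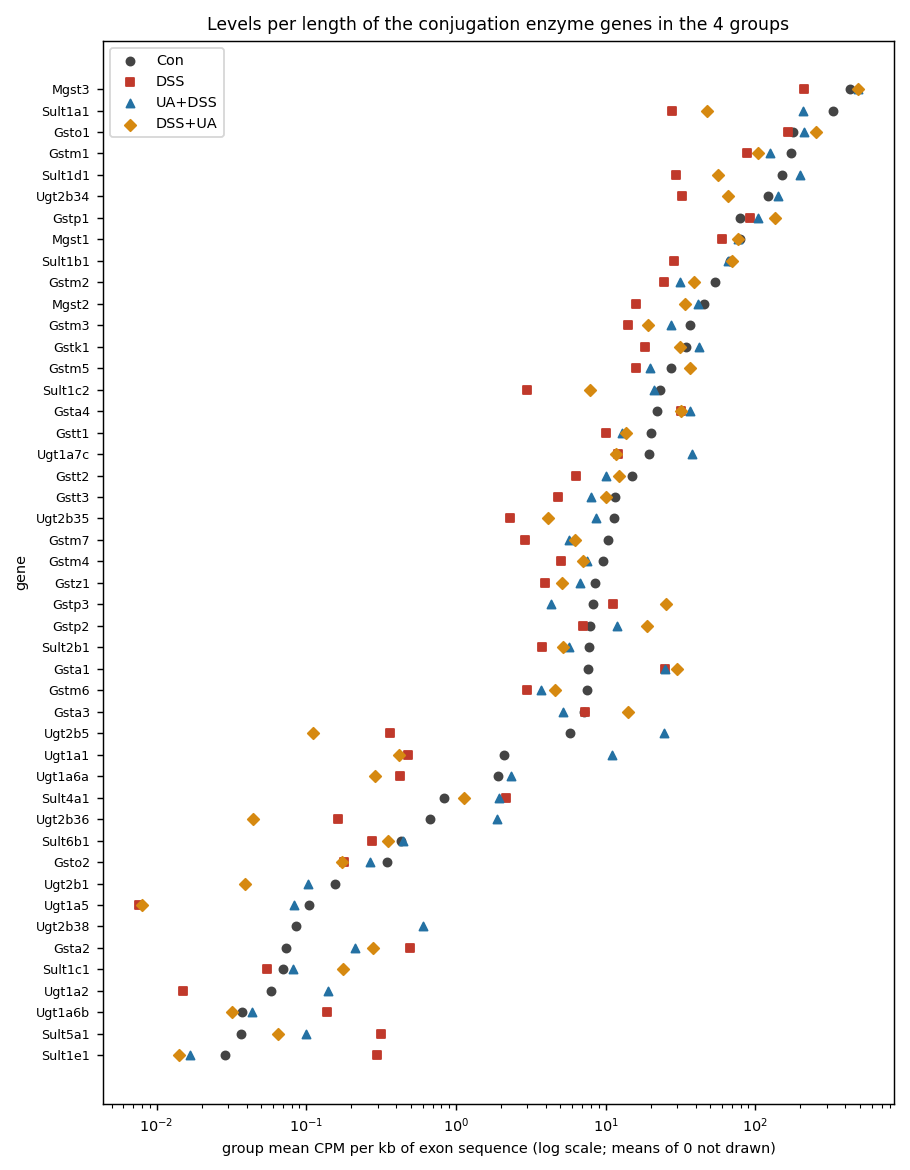
Group mean CPM per kb of exon sequence (log axis) for each conjugation enzyme gene with counts in Con, ordered by its Con level; markers are the 4 groups and means of 0 are not drawn. Sult1a1, at 331 CPM per kb in Con and 27.6 in DSS, is far from its Con level, while Gsto1 is at 178 and 167.

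Summed over each class, the sulfotransferases showed the largest difference between DSS and Con. The 11 SULT genes together stood at 1011, 1383 and 1009 CPM in Con, 215, 166 and 308 CPM in DSS, 838, 1480 and 843 CPM with UA before DSS (UA+DSS) and 306, 557 and 484 CPM with UA after it (DSS+UA). Their DSS mean was 20.3% of the Con mean and their DSS+UA mean 39.6%, with UA+DSS at 92.9%. The UGT2 sum was at 26.8% of Con in DSS, 121% in UA+DSS and 52.3% in DSS+UA, and the UGT1A sum at 57.2%, 205% and 54.7%. The GST mu (48.2%), GST theta (44.1%) and MGST (51.5%) sums were near one another in DSS. The means of the GST alpha (146%) and GST pi (115%) sums lay above Con in DSS and reached 198% and 182% in DSS+UA. For GST pi the DSS libraries (215, 112.5 and 155 CPM) overlapped those of Con (139, 153 and 127 CPM), with DSS 2 below all of Con. The 7 neutrophil genes summed to 9.26 to 114 CPM in Con and 887 to 17950 CPM in DSS, and the epithelial markers had the values above. Their part in the class sums was not tested.

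**Figure D2:**
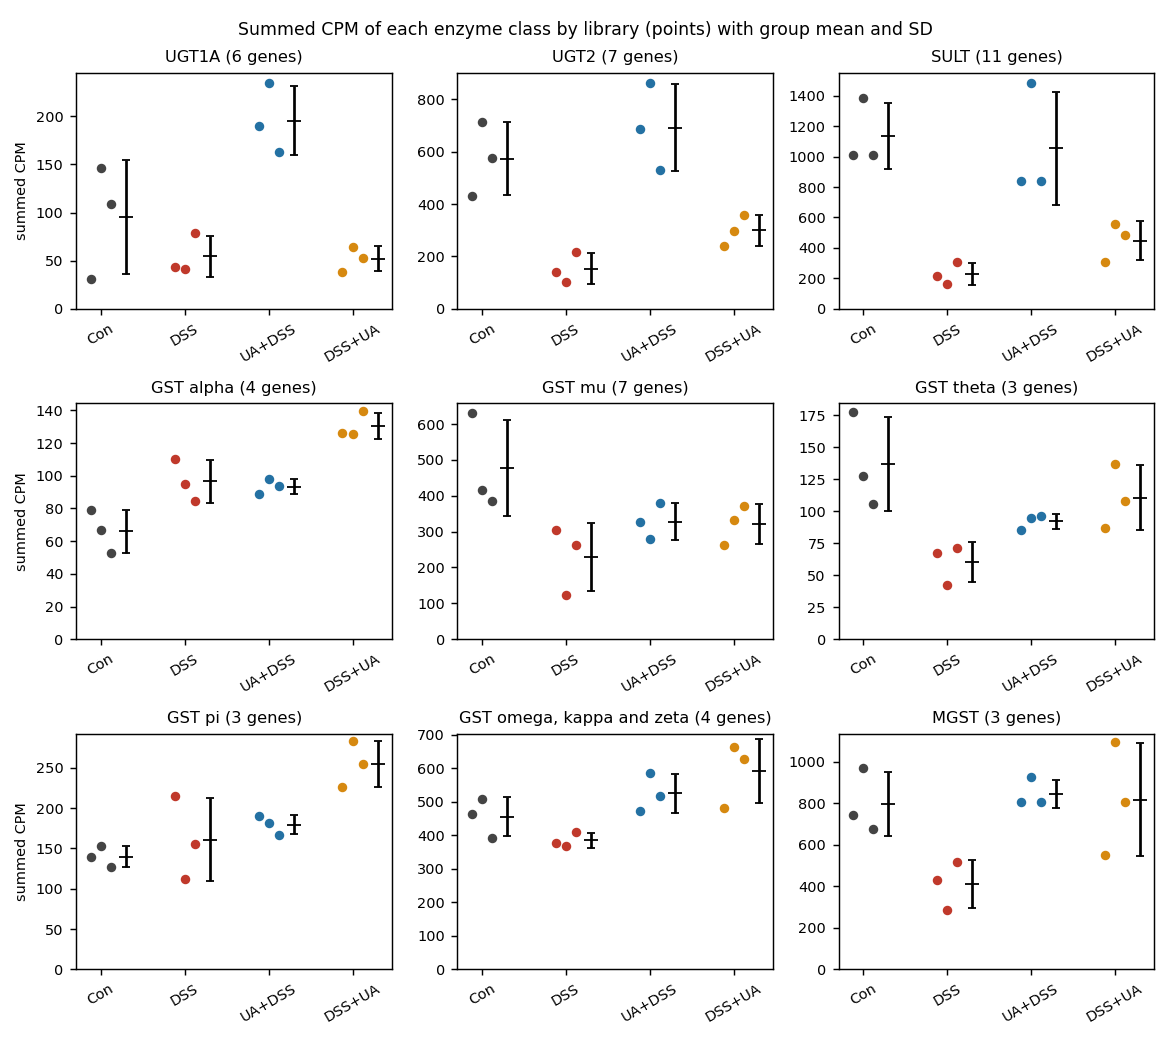
Summed CPM of the genes of each enzyme class (y axes from 0) in the 12 libraries, as points by group, with the group mean and SD beside them. The 3 DSS libraries lie below all Con libraries for SULT, UGT2, GST mu, GST theta and MGST, and above them for GST alpha.

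After a filter on low counts, 39 of the 48 genes could be tested among 17658 genes (edgeR quasi-likelihood, adjusted p under 0.05 called). The other 9 were Gsta2, Sult1c1, Sult1e1, Sult6b2, Ugt1a2, Ugt1a5, Ugt1a6b, Ugt2a3 and Ugt2b1. The filter keeps a gene that is high in a single group, so counts over the 39 do not speak for all 48. Ugt2b38 passed it through its UA+DSS libraries (0.585 to 1.87 CPM, at most 0.321 elsewhere). Sult5a1 passed through its DSS libraries (1.15 to 1.88 CPM, at most 0.638 elsewhere). The calls of these genes as higher in those groups are therefore no support. DSS colitis was set against Con first. Of the 39 genes, 18 fell, where 12.6% of all tested genes did, and 2 rose, where 13.9% did. Those that fell were Ugt1a6a, Ugt2b34, Ugt2b35, Sult1a1, Sult1b1, Sult1c2, Sult1d1, Sult2b1, 5 of 7 GST mu genes (Gstm2, Gstm3, Gstm4, Gstm6 and Gstm7), all 3 GST theta genes, Gstz1 and Mgst2, and those that rose were Gsta1 and Sult5a1. The median log2 fold change of the 39 was -1.04, against -0.03 over all tested genes. Scaled to the 12 epithelial markers instead of all genes, which moves the all-gene median log2 fold change by 0.67, 13 members were called, 5 higher and 8 lower. In that fit 6223 of all tested genes were called, 5689 of them higher. With the position score as a covariate 21 members were called, 3 higher and 18 lower, and 5382 of all tested genes, 2872 of them higher.

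**Figure D3:**
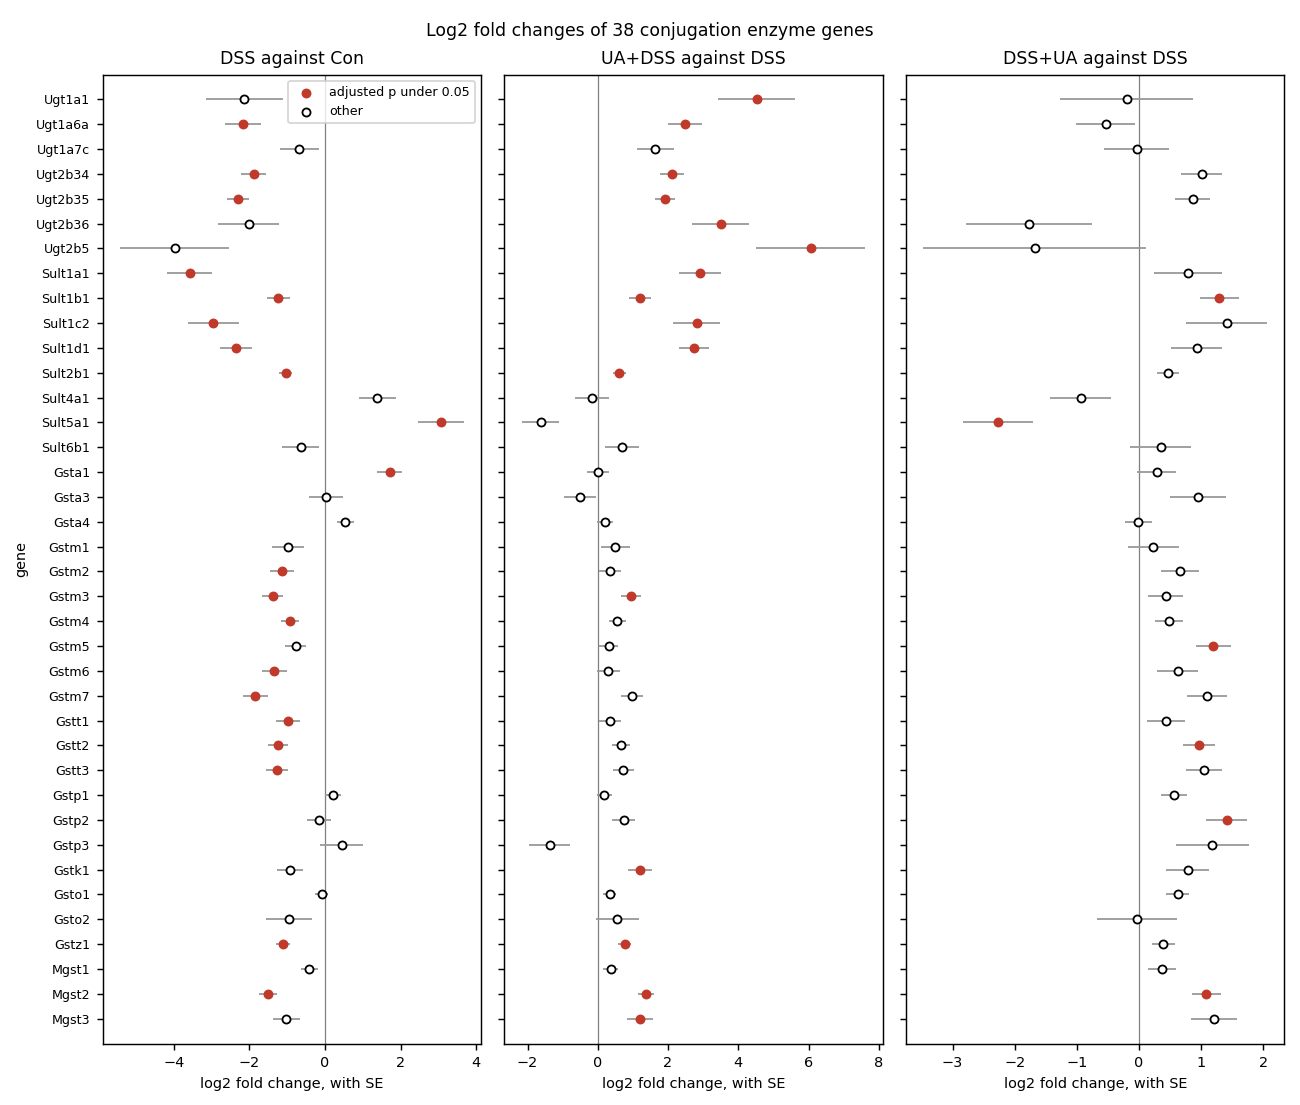
Log2 fold change (x axis, bars are SE) of 38 tested conjugation enzyme genes in DSS against Con, UA+DSS against DSS and DSS+UA against DSS, with filled points at an adjusted p under 0.05. Ugt2b38, without counts in DSS and DSS+UA, is left out, and most points lie left of 0 in the first panel and right of it in the second.

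Among the called members, those that fell most in DSS were sulfotransferases, which transfer sulfate to phenols, amines and steroids. Sult1a1 was at 552, 538 and 405 CPM (Con), 47.9, 10.1 and 66.8 CPM (DSS), 219, 479 and 241 CPM (UA+DSS) and 47.3, 86.0 and 82.0 CPM (DSS+UA). The DSS and DSS+UA libraries lay below every Con library, and UA+DSS overlapped Con. It fell in DSS (log2 fold change -3.58 ± 0.60 (SE), edgeR adjusted p = 0.00371) and the adjusted p ran from 2.66e-09 to 0.0281 over 23 other settings. Sult1c2 was at 44.2, 42.6 and 40.6 CPM (Con), 7.12, 0.601 and 8.77 CPM (DSS), 28.6, 56.0 and 32.2 CPM (UA+DSS) and 11.1, 13.9 and 18.8 CPM (DSS+UA). DSS 2, with its neutrophil and small-intestinal transcripts, had the lowest value, but all 3 DSS libraries were below Con (log2 fold change -2.95 ± 0.68 (SE), edgeR adjusted p = 0.0117). This call was lost when only the DSS and Con libraries were fitted (adjusted p = 0.0558, the highest of its alternatives, whose lowest was 3.66e-05).

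Sult1d1, which sulfates catecholamines, was at 231, 526 and 357 CPM (Con), 50.8, 61.2 and 106 CPM (DSS), 391, 718 and 358 CPM (UA+DSS) and 94.8, 192 and 131 CPM (DSS+UA). All DSS libraries were below Con and all UA+DSS libraries above DSS, with Con and UA+DSS overlapping (log2 fold change -2.35 ± 0.42 (SE), edgeR adjusted p = 0.00429 for DSS against Con). Sult1b1, which acts on thyroid hormones and phenols, was at 150.3, 238 and 176 CPM (Con), 90.0, 47.4 and 103 CPM (DSS), 174, 197 and 180.1 CPM (UA+DSS) and 126, 241 and 221 CPM (DSS+UA). Here both UA groups overlapped Con and lay above all DSS libraries (log2 fold change -1.23 ± 0.31 (SE), edgeR adjusted p = 0.016 for DSS against Con), a call that ended without Con 2, with only these groups fitted and with DSS 2 and DSS+UA 3 left out together (adjusted p up to 0.0614). Sult2b1, a cholesterol and hydroxysteroid sulfotransferase, averaged 30.7 ± 4.71 CPM (SD, n = 3) in Con and 14.9 ± 2.88 CPM in DSS (log2 fold change -1.04 ± 0.18 (SE), edgeR adjusted p = 0.00375), a call that ended under factors from the epithelial markers (adjusted p = 0.387). The member that rose most, Sult5a1, was low throughout, at 0.161 ± 0.0554 CPM in Con and 1.40 ± 0.415 CPM in DSS, from 9 and 84 counts (log2 fold change 3.07 ± 0.60 (SE), edgeR adjusted p = 0.00596). Sult4a1, known from brain, averaged 2.08 ± 1.30 CPM in Con and 5.47 ± 1.95 CPM in DSS and did not pass (adjusted p = 0.0595), nor did Sult6b1 (0.92 against 0.58 CPM). Sult6b2 was counted almost wholly in DSS 2 (20.8 CPM) and DSS+UA 3 (8.54 CPM), the libraries with small-intestinal transcripts, and Sult1e1 in DSS 1 (1.06 CPM, against at most 0.107 elsewhere). Sult1c1 stayed under 0.44 CPM in every library.

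Among the UGT2 genes, which act on steroids, bile acids and drugs, Ugt2b34 made up most of the counts. It was at 392.3, 647 and 526 CPM (Con), 132, 83.5 and 206 CPM (DSS), 602, 757 and 475 CPM (UA+DSS) and 229, 288 and 334 CPM (DSS+UA). All DSS and DSS+UA libraries lay below Con, with DSS+UA above DSS, and it fell in DSS (log2 fold change -1.89 ± 0.33 (SE), edgeR adjusted p = 0.00395). Ugt2b35 was at 37.6, 39.4 and 37.1 CPM (Con), 8.61, 4.91 and 9.61 CPM (DSS), 31.9, 30 and 25.7 CPM (UA+DSS) and 11.7, 10.1 and 20.1 CPM (DSS+UA). The Con values lay close together, and the DSS and DSS+UA libraries were all below the Con and UA+DSS libraries (log2 fold change -2.30 ± 0.29 (SE), edgeR adjusted p = 0.00136). Ugt2b5 was at 0, 22.0 and 10.4 CPM (Con), 0.0481, 1.35 and 0.634 CPM (DSS), 44.9, 65.2 and 26.1 CPM (UA+DSS) and 0, 0.0619 and 0.554 CPM (DSS+UA). Con 1 and DSS+UA 1 held none, while Con 2 and Con 3 held more than any DSS library, so Con and DSS overlapped (adjusted p = 0.0658). Ugt2b36 had the same order of libraries within Con (0.21, 2.27 and 1.66 CPM). Ugt2b38 had 9 counts in Con, 56 in UA+DSS and none in DSS or DSS+UA, which allows up to 3 counts in each of the latter groups (counting error only). Ugt2a3 had counts almost solely in DSS 2 (11.8 CPM) and DSS+UA 3 (3.22 CPM), as Sult6b2 did, and Ugt2b1 reached at most 1.03 CPM, in Con 1.

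In the UGT1A cluster most counts were assigned to Ugt1a7c. It was at 21.0, 129 and 96.2 CPM (Con), 41.4, 37.5 and 75.1 CPM (DSS), 164, 175 and 142 CPM (UA+DSS) and 36.5, 62.1 and 51.2 CPM (DSS+UA). Con 1 was the lowest of all 12 libraries and the UA+DSS libraries were the 3 highest. DSS against Con did not pass (log2 fold change -0.68 ± 0.52, adjusted p = 0.346). Ugt1a1, the bilirubin-conjugating enzyme, was at 0.517, 7.27 and 6.2 CPM (Con), 0.337, 0.701 and 2.17 CPM (DSS), 16.6, 43.9 and 13.0 CPM (UA+DSS) and 0.105, 1.36 and 1.33 CPM (DSS+UA). Con 1 again lay within the range of DSS and DSS+UA, and the UA+DSS libraries lay above all others. Ugt1a6a, which acts on simple phenols, was at 9.21, 9.10 and 6.26 CPM (Con), 1.25, 2.65 and 1.53 CPM (DSS), 8.53, 14.7 and 7.12 CPM (UA+DSS) and 2.05, 1.11 and 0.554 CPM (DSS+UA). Here Con 1 stood with the other Con libraries, and all 3 were above DSS and DSS+UA (log2 fold change -2.17 ± 0.47 (SE), edgeR adjusted p = 0.00872). That call ended under factors from the epithelial markers (adjusted p = 0.0703). Ugt1a2, Ugt1a5 and Ugt1a6b had 24, 24 and 34 counts in all, at most 0.50 CPM in any library.

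The glutathione transferases held members that fell and 1 that rose. Gsta1 was at 6.26, 9.93 and 5.62 CPM (Con), 19.9, 35.1 and 16.2 CPM (DSS), 21.7, 29.5 and 20.6 CPM (UA+DSS) and 31.2, 23.3 and 31.9 CPM (DSS+UA). All 9 libraries of the DSS-treated groups lay above all 3 Con libraries (log2 fold change 1.71 ± 0.32 (SE), edgeR adjusted p = 0.00484), and the adjusted p ran from 1.54e-05 to 0.0404 over its alternatives. Most of its sequence is shared with Gsta2 and Gm3776, so its counts may include their reads. Gsta2 itself had 70 counts, 35 of them in DSS. Gsta4, which clears the lipid peroxidation product 4-hydroxynonenal, was at 27.1, 31.9 and 24.2 CPM (Con), 40.3, 46.4 and 34.8 CPM (DSS), 37.8, 52.6 and 49.8 CPM (UA+DSS) and 48.5, 27.3 and 44.9 CPM (DSS+UA). Its DSS values were all above Con without passing (adjusted p = 0.0935). Gsta3 was at 45.2, 25.1 and 22.8 CPM (Con), 49.7, 12.4 and 33.2 CPM (DSS), 29.1, 15.3 and 23.1 CPM (UA+DSS) and 46.3, 75.0 and 62.5 CPM (DSS+UA). The DSS libraries spanned the Con range (log2 fold change 0.03 ± 0.45, adjusted p = 0.963), a sign that turned under several settings, and DSS+UA lay above all Con libraries.

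Gstm1, the GST mu gene with most counts, was at 361, 209.9 and 196 CPM (Con), 198, 49.1 and 145 CPM (DSS), 174, 159 and 223 CPM (UA+DSS) and 138, 142 and 181 CPM (DSS+UA). DSS 1 lay just above Con 3, so the groups overlapped (adjusted p = 0.106). Gstm2 was at 115, 77.5 and 80.2 CPM (Con), 50.7, 22.1 and 51.2 CPM (DSS), 54.2, 42.1 and 61.1 CPM (UA+DSS) and 50.8, 66.8 and 78.4 CPM (DSS+UA). The DSS libraries were all below Con (log2 fold change -1.14 ± 0.31 (SE), edgeR adjusted p = 0.0211), but the call ended without Con 1, with factors from the epithelial markers and with only these 2 groups fitted. Gstm7 averaged 16.8 ± 6.41 CPM in Con and 4.67 ± 1.34 CPM in DSS (log2 fold change -1.84 ± 0.32 (SE), edgeR adjusted p = 0.00382), the largest fall of the class, and Gstm3 48.4 ± 9.29 and 18.6 ± 5.05 CPM. Gstm4 (-0.93, adjusted p = 0.0142) and Gstm6 (-1.34, adjusted p = 0.0149) fell as well by log2 fold change. All 3 of these calls ended under epithelial factors, that of Gstm4 also without Con 2, with only these groups fitted and with DSS 2 and DSS+UA 3 left out, and that of Gstm6 also without DSS 1 (adjusted p up to 0.144 for Gstm3, 0.474 for Gstm4 and 0.237 for Gstm6). Gstm5 was at 39.9, 31.7 and 32.8 CPM (Con), 24.1, 12.6 and 24.4 CPM (DSS), 25.9, 23.3 and 26.4 CPM (UA+DSS) and 32.2, 63.2 and 44.2 CPM (DSS+UA). It was lower in every DSS library than in Con without passing (adjusted p = 0.0599), and DSS+UA 2 was the highest library of all.

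Both GST theta genes with most counts fell in DSS. Gstt2 was at 85.3, 54.5 and 46.5 CPM (Con), 29.5, 17.8 and 31.8 CPM (DSS), 39.5, 39.7 and 45.6 CPM (UA+DSS) and 43.1, 61.9 and 48.6 CPM (DSS+UA). No DSS library reached Con (log2 fold change -1.24 ± 0.27 (SE), edgeR adjusted p = 0.00817). Gstt3 was at 51.1, 45.9 and 35.5 CPM (Con), 19.6, 10.2 and 25.7 CPM (DSS), 26.8, 30.9 and 34.4 CPM (UA+DSS) and 29.7, 43.5 and 42.2 CPM (DSS+UA). The order of the groups was the same (log2 fold change -1.26 ± 0.29 (SE), edgeR adjusted p = 0.0118), and both calls ended under epithelial factors, that of Gstt3 also with only these groups fitted (highest adjusted p 0.0879 and 0.0607). Gstt1 (-0.98, adjusted p = 0.0403) lost its call without any of 8 single libraries (Con 1, Con 2, each DSS library, UA+DSS 1, UA+DSS 3 or DSS+UA 3), with adjusted p up to 0.487 over its alternatives.

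No GST pi gene passed in DSS against Con. Gstp1, the main pi-class enzyme, was at 113, 139 and 118 CPM (Con), 188, 99.4 and 141 CPM (DSS), 171, 164 and 152 CPM (UA+DSS) and 189.9, 237 and 205 CPM (DSS+UA). Con and DSS overlapped and all DSS+UA libraries were above both. Gstp2 was at 10.6, 8.93 and 6.95 CPM (Con), 11.9, 5.06 and 6.76 CPM (DSS), 15.3, 14.4 and 9.89 CPM (UA+DSS) and 15.7, 23.1 and 24.3 CPM (DSS+UA). The DSS+UA libraries again lay above Con and DSS. Gstp3 was at 15.7, 4.88 and 1.82 CPM (Con), 14.6, 8.02 and 7.76 CPM (DSS), 4.17, 3.37 and 4.20 CPM (UA+DSS) and 20.3, 23.4 and 25.3 CPM (DSS+UA). Con 1 was above the other Con libraries, and the DSS+UA libraries were the 3 highest.

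Gsto1, which reduces dehydroascorbate and removes glutathione from proteins, was at 380.3, 391 and 309 CPM (Con), 331, 331 and 350.4 CPM (DSS), 385, 479 and 421 CPM (UA+DSS) and 429, 570 and 556 CPM (DSS+UA). DSS values lay within the Con range (log2 fold change -0.09 ± 0.18, adjusted p = 0.715), and those of DSS+UA above it. Gstk1, a mitochondrial and peroxisomal transferase, was at 36.9, 72.3 and 42.7 CPM (Con), 22.4, 20.5 and 37.6 CPM (DSS), 47.5, 73.3 and 64.3 CPM (UA+DSS) and 31.8, 64.0 and 42.2 CPM (DSS+UA). DSS 3 overlapped Con 1, and the fall did not pass (adjusted p = 0.0664). Gstz1, the maleylacetoacetate isomerase of tyrosine breakdown, averaged 43.4 ± 2.46 CPM in Con and 20.1 ± 3.89 CPM in DSS (log2 fold change -1.11 ± 0.18 (SE), edgeR adjusted p = 0.003). That call ended under epithelial factors (adjusted p = 0.16). Gsto2 stayed under 1.25 CPM.

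Of the membrane-bound MGST enzymes, Mgst3 was at 364, 637 and 412 CPM (Con), 245, 132 and 319 CPM (DSS), 478, 612 and 522 CPM (UA+DSS) and 333, 749.8 and 527 CPM (DSS+UA). All DSS libraries were below Con, but the difference did not pass (log2 fold change -1.02 ± 0.36, adjusted p = 0.0591). Mgst1 was at 206, 152 and 120.5 CPM (Con), 129.9, 103 and 128 CPM (DSS), 175, 158 and 133 CPM (UA+DSS) and 127, 173 and 168 CPM (DSS+UA). Con 3 was below DSS 1 and DSS 3, so the groups overlapped (adjusted p = 0.176). Mgst2, which can make leukotriene C4, was at 175, 184 and 146 CPM (Con), 55.0, 50.5 and 71.8 CPM (DSS), 156, 155 and 151 CPM (UA+DSS) and 92.0, 174 and 109.6 CPM (DSS+UA). All 3 DSS libraries were below the other 9, and it fell in DSS (log2 fold change -1.51 ± 0.23 (SE), edgeR adjusted p = 0.00274, alternatives 3.15e-07 to 0.0198).

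**Figure D4:**
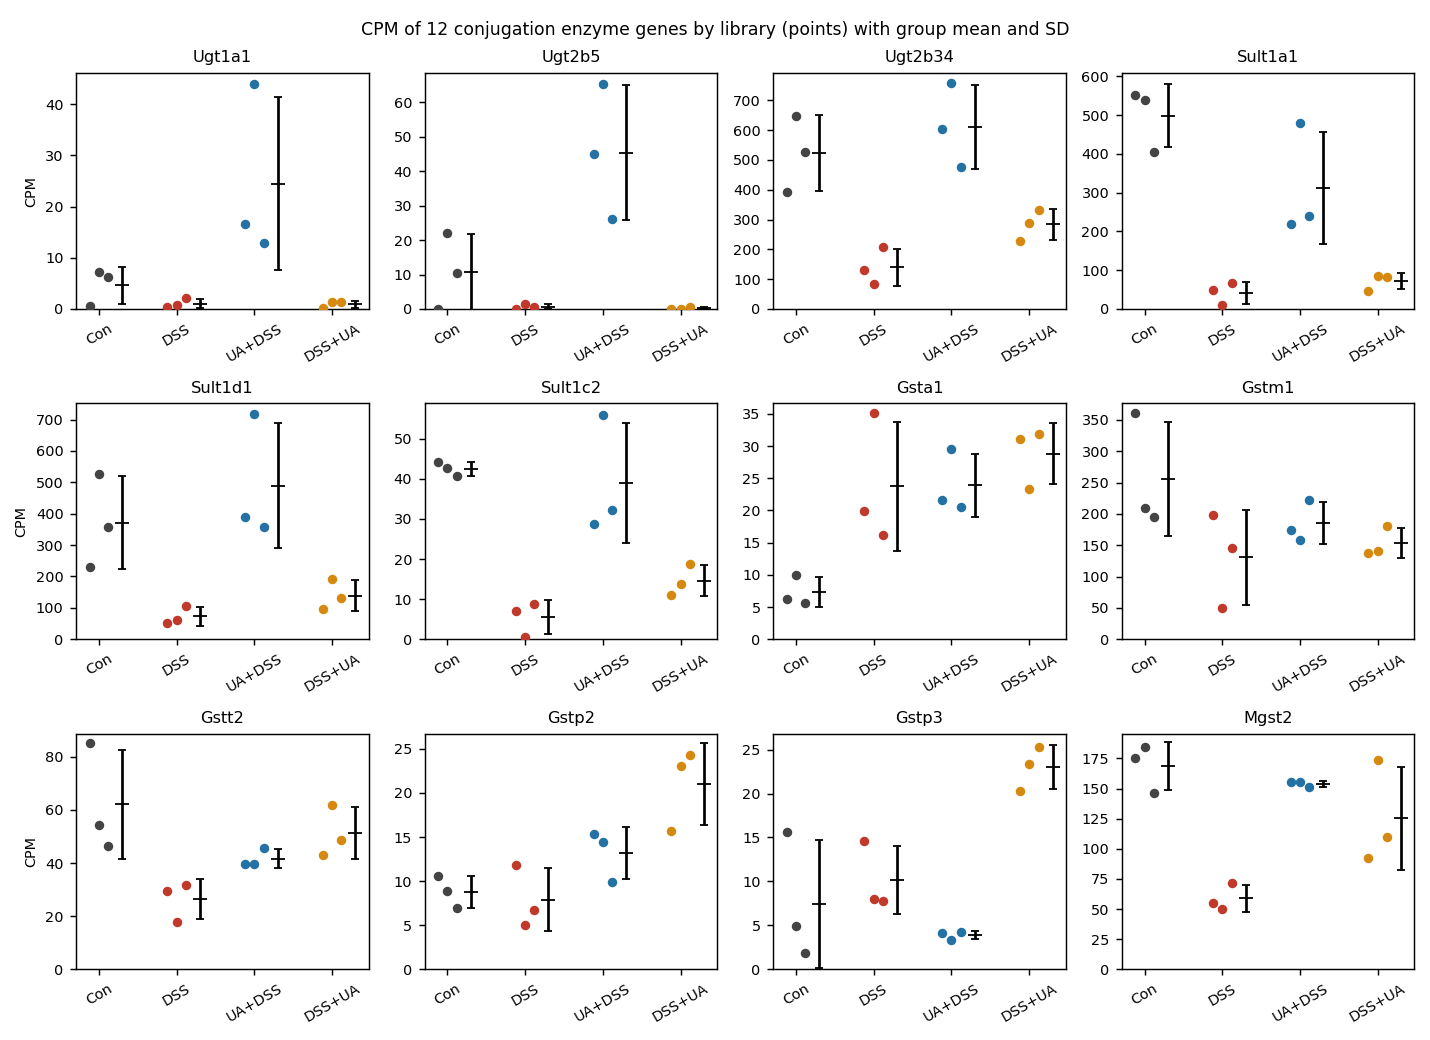
CPM (y axes from 0) of 12 conjugation enzyme genes in each library, as points by group, with the group mean and SD. Sult1a1, Sult1c2 and Mgst2 are lower in every DSS library than in any Con library, Gsta1 is higher, and Ugt2b5 and Ugt1a1 are highest in UA+DSS.

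UA given from before the DSS was compared with DSS alone. In UA+DSS, 17 of the 39 genes were higher than in DSS, where 8.21% of all tested genes were, and none was lower, where 10.5% of all tested genes were (edgeR; 2 members, Sult5a1 and Gstp3, were lower at an unadjusted p of 0.0118 and 0.04, and DESeq2, limma-voom and unscaled library sizes each called 1 lower). The 17 were all 5 tested UGT2 genes, Ugt1a1 and Ugt1a6a, Sult1a1, Sult1b1, Sult1c2, Sult1d1 and Sult2b1, Gstm3, Gstk1 and Gstz1, Mgst2 and Mgst3. Of the UGT2 genes, Ugt2b38 was tested only through its UA+DSS libraries, and Ugt2a3 and Ugt2b1 were not tested. Where mean log2 CPM was 1 or more, the largest called difference was that of Ugt2b5, at 0.678 ± 0.653 CPM in DSS and 45.4 ± 19.5 CPM in UA+DSS (log2 fold change 6.06 ± 1.56 (SE), edgeR adjusted p = 0.0261, alternatives 0.0075 to 0.904). Ugt1a1 (log2 fold change 4.52 ± 1.10 (SE), edgeR adjusted p = 0.0216, alternatives 3.3e-05 to 0.497) and Sult1a1 (log2 fold change 2.91 ± 0.59 (SE), edgeR adjusted p = 0.0133, alternatives 4.83e-06 to 0.134) followed. Ugt2b38 was at least 22.1-fold higher, taking the 3 DSS libraries together at 3 counts. Sult1d1 (2.75, adjusted p = 0.00825), Ugt2b34 (2.12, adjusted p = 0.00836), Ugt2b35 (1.92, adjusted p = 0.00749), Mgst2 (1.38, adjusted p = 0.00944) and Mgst3 (1.21, adjusted p = 0.0417) were higher too by log2 fold change, and of these Mgst3 lost its call in 12 of 23 alternatives.

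The Hox position score moved with this comparison. With it as a covariate, none of the 39 genes was called in UA+DSS against DSS (edgeR), and 3 of all tested genes were. The fitted differences then parted, none past the threshold. The fitted log2 fold change of Sult1a1 moved by under 0.2 (2.91, adjusted p = 0.134), as did those of Ugt2b35 (1.93, adjusted p = 0.0979), Mgst2 (1.35, adjusted p = 0.105) and Ugt1a6a (2.36, adjusted p = 0.128). That of Ugt2b5 turned (-0.40, adjusted p = 0.904) and that of Ugt1a7c, not called before, turned too (-0.23, adjusted p = 0.736). Those of Ugt1a1 (1.34, adjusted p = 0.497), Ugt2b36 (0.94, adjusted p = 0.583), Sult1d1 (1.78, adjusted p = 0.114) and Ugt2b34 (1.55, adjusted p = 0.119) were smaller. The scores of the UA+DSS and DSS libraries do not overlap, so the part of UA and that of position cannot be told apart. The count of 17 became 10 without DSS 1, 11 without UA+DSS 1, 4 without UA+DSS 2, 11 without UA+DSS 3 and 8 without DSS 2 and DSS+UA 3. Over all tested genes, 3300 calls became 1722, 1936, 183, 1390 and 1047 in the same fits, in that order. Scaled to the epithelial markers, which moves the median of all genes by -0.80, 14 members were called, 11 higher and 3 lower. In that fit 7479 of all tested genes were called, 398 of them higher.

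UA begun after the DSS was compared with DSS alone in the same way. In DSS+UA, 5 of the 39 genes were higher than in DSS (2.54% of all tested genes were) and 1 was lower (5.0% of all tested genes were). The genes that rose were Gstp2 (log2 fold change 1.41 ± 0.33 (SE), edgeR adjusted p = 0.0335), Sult1b1 (log2 fold change 1.29 ± 0.31 (SE), edgeR adjusted p = 0.0367), Gstm5 (log2 fold change 1.19 ± 0.28 (SE), edgeR adjusted p = 0.0343), Mgst2 (1.08, adjusted p = 0.0261) and Gstt2 (0.96, adjusted p = 0.05), and Sult5a1 fell (-2.27, adjusted p = 0.0402). Each of these calls ended under at least 8 of its alternatives, with highest adjusted p of 0.232 for Gstp2, 0.221 for Sult1b1 and 0.268 for Gstm5. The count was 0 without DSS 2, without DSS+UA 2 or without DSS+UA 3, and 3 without DSS 1, 2 without UA+DSS 1, 1 without UA+DSS 2 and 2 without UA+DSS 3. The calls among all tested genes fell as well, from 1331 to 397, 142, 25, 1126, 621, 679 and 580, in that order. The count of members was 0 with the position score as a covariate and 2, both lower, under epithelial factors, which move the median of all genes by -0.83. All tested genes had 199 calls (28 higher) with the position score and 5889 (5 higher) under epithelial factors. No UGT was called. Ugt1a7c averaged 51.3 ± 20.7 CPM in DSS and 49.9 ± 12.8 CPM in DSS+UA, and Ugt2b34 141 ± 62.0 and 284 ± 52.3 CPM (1.01, adjusted p = 0.072 for the log2 fold change). The comparisons of both UA groups with DSS share the DSS libraries.

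Set against Con, UA+DSS had no member called (edgeR; 0.00566% of all tested genes were, 1 gene). At an unadjusted edgeR p under 0.05 stood 11 of the 39 members, beside 2132 of all 17658 tested genes. No member and no other gene passed by limma-voom. DESeq2 called 1 member (Gsta1, DESeq2 adjusted p = 0.000323), among 372 genes in all. The SULT sum was 1134 ± 216 CPM in Con and 1053 ± 369 CPM in UA+DSS (SD, n = 3 each), and the MGST sum 799 ± 154 and 846 ± 68.1 CPM. Gsta1 averaged 7.27 ± 2.33 and 23.9 ± 4.86 CPM (log2 fold change 1.72 ± 0.32 (SE), edgeR adjusted p = 0.166). Ugt1a1 averaged 4.66 ± 3.63 and 24.5 ± 16.9 CPM (2.39, adjusted p = 0.382 for the log2 fold change), with all UA+DSS libraries above Con.

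DSS+UA differed from Con in 12 members, 3 higher (9.13% of all tested genes were) and 9 lower (8.95% were). Gsta1 (log2 fold change 1.99 ± 0.32 (SE), edgeR adjusted p = 0.00542, alternatives 7.7e-07 to 0.0258), Gstp2 (log2 fold change 1.25 ± 0.33 (SE), edgeR adjusted p = 0.0254) and Gstp1 (log2 fold change 0.77 ± 0.21 (SE), edgeR adjusted p = 0.0303) were higher. Ugt2b5 (log2 fold change -5.66 ± 1.68 (SE), edgeR adjusted p = 0.0417), Ugt2b36, Sult1a1 (log2 fold change -2.80 ± 0.58 (SE), edgeR adjusted p = 0.0122, alternatives 1.03e-05 to 0.048), Ugt1a6a (log2 fold change -2.71 ± 0.49 (SE), edgeR adjusted p = 0.00727, alternatives 1.23e-06 to 0.0311), Ugt2b35, Sult1d1, Gstm3, Gstz1 and Sult2b1 were lower. The Ugt2b5 call held in 6 of 22 alternatives, and Con 1, without a count, overlapped DSS+UA. The calls of Gstp1 and Gstp2 ended without Con 2, Con 3, DSS+UA 2 or DSS+UA 3, that of Gstp1 also without Con 1, and both ended under epithelial factors and with the position score (adjusted p up to 0.115 and 0.144). The count of 12 became 4 without Con 2 or without DSS+UA 3, 6 without Con 3 or without DSS+UA 1, 6 (1 higher, 5 lower) with the position score as a covariate and 7 (1 higher, 6 lower) under epithelial factors, which move the median of all genes by -0.16. Over all tested genes, 3193 calls became 1886, 1062, 1563 and 1809 without these libraries, in that order. They became 2176 (996 higher) with the position score and 959 (175 higher) under epithelial factors.

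The direct comparison of the UA groups tests whether they differ from each other. In UA+DSS, 9 members were higher than in DSS+UA (7.54% of all tested genes were) and 1, Gstp3, was lower (9.23% were). The 9 were all 5 tested UGT2 genes, Ugt1a1, Ugt1a6a, Sult1a1 and Sult1d1, and no gene of the GST mu, theta, alpha, omega or MGST classes was among them (edgeR adjusted p of 0.05 or more). Here too Ugt2b38 was tested only through its UA+DSS libraries. Ugt2b5 was at 45.4 ± 19.5 CPM in the former and 0.205 ± 0.304 CPM in the latter (log2 fold change 7.73 ± 1.76 (SE), edgeR adjusted p = 0.0182), Ugt1a1 at 24.5 ± 16.9 and 0.932 ± 0.716 CPM (log2 fold change 4.72 ± 1.12 (SE), edgeR adjusted p = 0.0209) and Ugt1a6a at 10.1 ± 4.02 and 1.24 ± 0.758 CPM (log2 fold change 3.02 ± 0.49 (SE), edgeR adjusted p = 0.00748). Gstp3 was at 3.92 ± 0.469 and 23.0 ± 2.52 CPM (log2 fold change -2.55 ± 0.61 (SE), edgeR adjusted p = 0.02). With the position score as a covariate none of these 10 genes, nor any gene tested, was called, and the log2 fold change of Ugt1a6a was 2.85, adjusted p = 0.306, of Sult1a1 2.12, adjusted p = 0.445 and of Gstp3 -0.10, adjusted p = 0.965. The count of 10 became 4, 6 and 3 without DSS+UA 1, 2 and 3 and 5, 2 and 6 without UA+DSS 1, 2 and 3. Among all tested genes, 2961 calls became 1700, 2098 and 931, and 1442, 560 and 1656, in the same fits.

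Within Con, which received neither DSS nor UA, Con 1 had the highest position score of all 12 libraries and stood apart from Con 2 and Con 3 in several members. It had 0.517 CPM of Ugt1a1 against 7.27 and 6.2, 21.0 CPM of Ugt1a7c against 129 and 96.2, 0 CPM of Ugt2b5 against 22.0 and 10.4, and 15.7 CPM of Gstp3 against 4.88 and 1.82. For Sult1a1 (552 against 538 and 405 CPM), Sult1c2, Ugt1a6a, Ugt2b35 and Mgst2 (175 against 184 and 146 CPM) it stood with the other Con libraries. It was also above both of them for Gstm1 (361 against 209.9 and 196 CPM), Gstm2, Gstm6, Gstm7, Gstt2 (85.3 against 54.5 and 46.5 CPM) and Gsta3 (45.2 against 25.1 and 22.8 CPM). In the sum of colonocyte markers Con 1 also stood lower, with 12 absorptive genes summing to 4189 CPM, against 12540 and 7892 CPM in Con 2 and Con 3, 1295 to 5214 in DSS, 10560 to 15240 in UA+DSS and 2593 to 5066 in DSS+UA. Singly, Slc20a1 was higher in Con 1 (384 CPM, against 118 and 110 in Con 2 and Con 3). Car4 in Con 1 lay between Con 2 and Con 3 (455 CPM, against 559 and 434), and the others were lower in Con 1. None of these 12 markers was at 0 in any library. Their part in the UGT values was not tested.

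**Figure D5:**
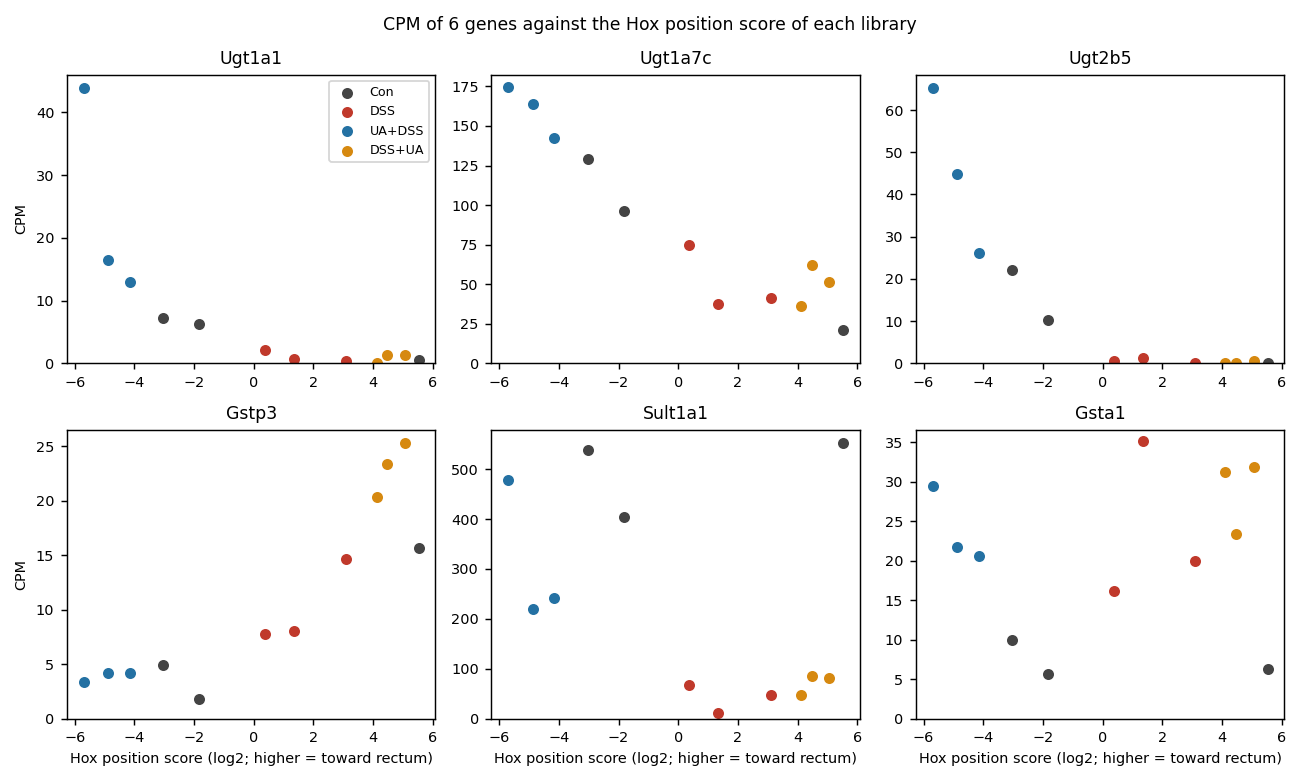
CPM (y axes from 0) of 6 genes against the Hox position score of each library (x axis, log2 units, higher toward the rectum), coloured by group. For Ugt1a1, Ugt1a7c and Ugt2b5 the 5 libraries with a score below 0 are the 5 highest and for Gstp3 they are the 5 lowest, while Sult1a1 is highest in Con 1, at 552 CPM and the highest score.

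UGT and SULT reactions need UDP-glucuronic acid and PAPS. Counts for the lists that follow stand beside 13.9% higher and 12.6% lower of all tested genes in DSS against Con, and 8.21% and 10.5% in UA+DSS against DSS, and no difference between lists was tested. For these genes too, the part of UA and that of position cannot be told apart. With the position score as a covariate, 3 of all tested genes were called in UA+DSS against DSS and none between the UA groups. Of 11 tested genes for UDP-glucuronic acid and PAPS, 4 fell and none rose in DSS, and 6 rose and none fell in UA+DSS against DSS. None passed in DSS+UA against DSS, where only 7.54% of all tested genes were called. Papss1, which makes PAPS, averaged 218 ± 29.9 CPM in Con, 88.7 ± 37.2 in DSS, 189.7 ± 15.0 in UA+DSS and 164 ± 32.1 in DSS+UA (log2 fold change -1.29 ± 0.29 (SE), edgeR adjusted p = 0.0102 for DSS against Con), and Slc35b3, a Golgi PAPS transporter, 70.9 ± 8.76, 33.9 ± 5.03, 53.7 ± 9.32 and 50.9 ± 7.87 (-1.07, adjusted p = 0.00354 for the same log2 fold change). Ugdh, which makes UDP-glucuronic acid, averaged 421 ± 230.1, 119.9 ± 27.1, 595 ± 192 and 139 ± 57.9 CPM, and it was higher in UA+DSS than in DSS (2.31, adjusted p = 0.0113) and than in DSS+UA (2.10, adjusted p = 0.0125). Papss2 (1.28, adjusted p = 0.0204), the sulfate carrier Slc26a2 (1.51, adjusted p = 0.0208) and the UDP-sugar transporter Slc35d1 (1.91, adjusted p = 0.0197) were also higher in UA+DSS than in DSS, and Slc35b1 was higher in DSS+UA than in Con (0.98, adjusted p = 0.0139).

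Of 10 tested genes of glutathione synthesis and recycling, 5 rose and 1 fell in DSS, and none rose and 4 fell in UA+DSS against DSS. Slc7a11, the cystine importer, was at 3.30 ± 0.261 CPM in Con and 129 ± 164 CPM in DSS (log2 fold change 5.29 ± 0.97 (SE), edgeR adjusted p = 0.00519), its partner Slc3a2 at 59.7 ± 4.99 and 137 ± 28.0 CPM (1.20, adjusted p = 0.00133) and glutathione reductase Gsr at 132 ± 11.9 and 365 ± 167 CPM (1.47, adjusted p = 0.00602). In DSS 2, Slc7a11 was at 318 CPM, against 27.3 and 41.4 in DSS 1 and DSS 3, and DSS 2 is the library with 17950 CPM of neutrophil genes, whose part was not tested. Slc3a2 was also lower in DSS+UA than in DSS (-0.75, adjusted p = 0.023), and G6pdx, Gsr and Pgd were lower in UA+DSS than in DSS+UA (adjusted p = 0.0101, 0.0226 and 0.0172), while Slc1a5 was lower in DSS+UA than in Con (-0.85, adjusted p = 0.0265). Of 11 tested genes of mercapturate formation and glutathione breakdown, 3 rose and 2 fell in DSS. Ggt5 averaged 6.61 ± 2.39 and 38.7 ± 9.59 CPM (2.55, adjusted p = 0.00117) and Chac1 0.949 ± 0.331 and 3.29 ± 0.957 CPM (1.79, adjusted p = 0.00675). Acy1 and Chac2 were higher in DSS+UA than in DSS (adjusted p = 0.0352 and 0.0401), Acy3 was higher in UA+DSS than in DSS (0.048), Ggt1 was higher in DSS+UA than in Con (0.048), and Dpep1 was higher in UA+DSS than in DSS+UA (3.25, adjusted p = 0.0266).

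Of 13 tested hydrolases that remove conjugates or split esters, 1 rose and 3 fell in DSS, and 4 rose and 1 fell in UA+DSS against DSS. Gusb, the lysosomal beta-glucuronidase, averaged 43.2 ± 3.17 CPM in Con, 93.3 ± 12.9 in DSS, 53.0 ± 16.1 in UA+DSS and 101 ± 18.1 in DSS+UA (log2 fold change 1.11 ± 0.23 (SE), edgeR adjusted p = 0.00666 for DSS against Con). The carboxylesterases Ces2a (2.98, adjusted p = 0.02), Ces2c (3.07, adjusted p = 0.0184), Ces2e (2.58, adjusted p = 0.0214) and Ces1f (2.58, adjusted p = 0.0158) were higher in UA+DSS than in DSS, and Ces1d and Ces1g higher than in DSS+UA (adjusted p = 0.0106 and 0.00956). Of 15 transporters, 4 rose and 3 fell in DSS, beside 13.9% and 12.6% of all tested genes. The drug efflux pump genes parted, with Abcb1a at 626 ± 246 CPM in Con and 113 ± 73.8 in DSS (log2 fold change -2.47 ± 0.54 (SE), edgeR adjusted p = 0.00909) and Abcb1b at 2.58 ± 0.477 and 10.8 ± 1.07 CPM (log2 fold change 2.06 ± 0.29 (SE), edgeR adjusted p = 0.00223). In UA+DSS against DSS, Abcb1a (2.83, adjusted p = 0.0122), the conjugate exporter Abcc3 (1.53, adjusted p = 0.0171) and the bile acid exporter subunit Slc51b (2.21, adjusted p = 0.0151) rose and Abcb1b, Abcc1 and Abcc4 fell. Abcb1b, Abcc5 and Slco3a1 fell in DSS+UA against DSS. Abcb1a (-2.77), Abcc6 and Slco2b1 were lower in DSS+UA than in Con (edgeR adjusted p = 0.00992, 0.0217 and 0.0206). Abcb1a (3.13), Abcc5 (1.67), Slc51a, Slco2a1 and Slco2b1 were higher in UA+DSS than in DSS+UA (edgeR adjusted p = 0.00826, 0.0183, 0.0365, 0.0346 and 0.0149).

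Of 11 other conjugating enzymes, 2 were higher and 2 lower in DSS, near the shares of all tested genes (13.9% and 12.6%). The arylamine acetyltransferase Nat2 averaged 30.3 ± 5.78 CPM in Con and 16.8 ± 3.27 in DSS (-0.85, adjusted p = 0.0185) and the nicotinamide methyltransferase Nnmt 2.80 ± 0.641 and 7.66 ± 0.680 CPM (1.45, adjusted p = 0.0208). Ugt8a (at most 0.106 CPM in DSS and at least 1.93 CPM in UA+DSS, adjusted p = 0.00902) and Nat2 were higher and Gnmt (-3.83, adjusted p = 0.0101) and Nnmt lower in UA+DSS than in DSS. Gnmt was low throughout, at most 0.213 CPM in UA+DSS and at 1.20, 1.25 and 6.29 CPM in DSS. The highest of these is DSS 3, the library with exocrine pancreas transcripts, whose part was not tested. A further list held other glutathione-dependent and MAPEG proteins, together with genes such as Vars, Eef1g and Ptgr1 that are not known as either. Of its 14 tested genes, 4 rose and 2 fell in DSS and 1 rose and 6 fell in UA+DSS against DSS. Ptges, the inducible prostaglandin E synthase, averaged 10.5 ± 3.32, 67.1 ± 42.0, 8.94 ± 2.07 and 16.5 ± 2.69 CPM in the 4 groups, Con first and DSS+UA last (2.67, adjusted p = 0.00275 for DSS against Con), and Alox5ap, the 5-lipoxygenase partner of leukocytes, 3.82 ± 0.188 CPM in Con and 105 ± 149 in DSS (4.78, adjusted p = 0.00825). DSS 2, with its neutrophil transcripts, held 278 CPM of Alox5ap, against 19.5 and 19.0 in DSS 1 and DSS 3, and 116 CPM of Ptges, against 42.6 and 43.0. Clic4, Gstcd, Ptgr1 and Vars also fell and Hagh rose in UA+DSS against DSS, and Clic1, Eef1g, Glo1, Ptgr1 and Vars were lower in UA+DSS than in DSS+UA.

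Nuclear receptors and other regulators are known to act on conjugation genes. Of 24 tested sensors and regulators, 8 fell and 1 rose in DSS, and 10 rose and none fell in UA+DSS against DSS. Nr1i2, the pregnane X receptor, fell in DSS (log2 fold change -1.24, adjusted p = 0.00796, edgeR) and was higher in UA+DSS than in DSS (1.27, adjusted p = 0.0137), as were Vdr, Hnf4a, Hnf4g, Nr1h4, Ppara, Esrra and Foxa1. Ppara, Hnf4g and Rxra were higher in UA+DSS than in DSS+UA, and Esrra was higher in DSS+UA than in DSS. Of 11 reporter genes of the xenobiotic and antioxidant pathways, 2 rose and 1 fell in DSS, near the shares of all tested genes (13.9% and 12.6%). Hmox1 was at 4.26 ± 1.61 CPM in Con and 128 ± 135 CPM in DSS (4.91, adjusted p = 0.00242), with DSS 2 at 284 CPM and DSS 1 and DSS 3 at 52.4 and 48.3 CPM, and Txnrd1 at 231 ± 44.3 and 421 ± 91.7 CPM (0.87, adjusted p = 0.0148). Aldh1a1 (2.99, adjusted p = 0.0146), Cyp2c55 (3.88, adjusted p = 0.0423) and Cyp3a13 (2.22, adjusted p = 0.049) were higher and Hmox1 lower (-3.65, adjusted p = 0.0107) in UA+DSS than in DSS, and Cyp1b1 and Por were higher in UA+DSS than in DSS+UA. Con 1 was below Con 2 and Con 3 for Aldh1a1 (36.5 CPM, against 286 and 145) and Cyp2c55 (307 CPM, against 2784 and 1458). The part of position in these differences was not tested.

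Promoters were searched for the core of the antioxidant response element, which is known from GST genes, and the match in Gsta3 is shown to place it before the gene start. RefSeq windows (GRCm38.p6, from 250 bases before to 50 after the start) were found for 44 of the 48 genes. Only the 250 bases before the start were searched, on both strands. The letters TGACNNNGC were in 9.09% of these genes and in 11.5% of 27025 genes. The stretch upstream of Gsta3 (chr1:21240456-21240584, plus strand) shows the match in capitals.
Gsta3: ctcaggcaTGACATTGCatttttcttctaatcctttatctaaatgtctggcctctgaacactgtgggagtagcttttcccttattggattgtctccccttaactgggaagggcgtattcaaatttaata
This is a match of letters and describes the window alone. Gsta3 did not pass in DSS against Con.

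By count of called members in DSS against Con, SULT came first (6 of 8 tested). Among the 6 is Sult5a1, which passed the filter through its DSS libraries. Without it, SULT and GST mu each had 5 called members, so the order of the classes is no result. The SULT member of highest mean CPM, Sult1d1, was compared with all tested genes outside the set over the 12 libraries. The 3 genes most like it by Pearson correlation of log2 CPM were Pxmp4 (r = 0.982), a peroxisomal membrane protein, Gpbp1l1 (0.980) and Tmem220 (0.980). This is a description, and the 12 points share their groups and their epithelial content.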

How the data were processed

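The authors extracted colon RNA, made TruSeq libraries and deposited raw read counts per Ensembl gene for each of 12 libraries. The study's methods and the submitters' processing notes name FastQC, HISAT2, Cuffdiff and GRCm38, with no versions, and the sources used here give neither the counting rule nor the use of strand. Counts were not changed before testing. GENCODE (GRCm38) gave symbols, positions and merged exon lengths. CPM were computed from the deposited counts with TMM factors (0.871 to 1.09).

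All 12 libraries entered 1 edgeR 4.0.16 quasi-likelihood fit (R 4.3.3, robust, filterByExpr, 17658 genes, 99.8% of counts) with 6 contrasts between the 4 groups and no covariate, and Benjamini-Hochberg adjustment over all tested genes. The common biological coefficient of variation was 0.352. limma 3.58.1 (voom), DESeq2 1.42.0, other scalings, filters, a replicate block, a position covariate and leaving out each library were alternatives, and leaving out DSS 2 and DSS+UA 3 was added after seeing the data. The fits were also run on simulated counts with planted differences. Those counts held no position differences and no libraries that stood apart, so they do not vouch for the fits of these data. Libraries of a group differed by more than sampling noise (chi-square per gene 20.7 to 230.4).

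Genes were selected by symbol, and the members, marker and pathway lists (1 gene each of 2 lists, Sts and Mars1, had no match) were chosen with earlier results of these data known. Every member is named. Library values are given for the 2 genes of highest mean CPM per class and, per comparison, the 3 called genes raised most and the 3 lowered most, where mean log2 CPM was 1 or more. Pathway genes named are the 2 of smallest p per list in DSS against Con and those called in a UA comparison. Of the regulators, some that this rule names are not reported here. Mgst2 was given library values after its values were seen. Sequences are from GENCODE transcripts and RefSeq promoter windows. Protein sequences were not used here.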

Additional observations from a re-analysis of the deposited data

How the results depend on the processing

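The count of members called in DSS against Con stayed within 17 to 24 when any library was left out, and UA+DSS against Con stayed at 0 in each of those fits. Leaving out 1 library gave 4 to 20 calls for UA+DSS against DSS, 0 to 8 for DSS+UA against DSS, 4 to 15 for DSS+UA against Con and 2 to 13 between the UA groups. In the same comparisons, calls over all tested genes ran from 183 to 4112, 25 to 1825, 1062 to 4057 and 560 to 3893. Factors from the epithelial markers gave 13 called members for DSS against Con, 2 for DSS+UA against DSS and 7 for DSS+UA against Con. Of all tested genes 6223, 5889 and 959 were called there. The position score as a covariate gave 0 for either UA group against DSS, 0 between the UA groups and 6 for DSS+UA against Con. DESeq2 gave 12 in DSS+UA against DSS and 1 in UA+DSS against Con, and a fit of only the 2 groups gave 0 in DSS+UA against DSS. All genes together had 3055, 372 and 430 calls there. With DSS 2 and DSS+UA 3 left out, chosen after seeing the data, 8 members were called for UA+DSS against DSS and 0 for DSS+UA. Of all tested genes 1047 and 16 were. A replicate block gave 2 in DSS+UA against DSS and moved no other count by over 1.5 times (same-numbered libraries correlated from -0.216 to 0.187, 5 of 18 pairs over 0.1, so the numbers do not pair the samples). Apart from fewer samples where libraries were left out, the cause was not tested.

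The members whose log2 fold change in DSS against Con turned had not passed there. Gsta3 turned with upper-quartile factors (-0.02), limma-voom (-0.11), the replicate block (-0.03) and the position score (-0.12), and ranged from -0.45 to 0.41 with 1 library left out. Under epithelial factors Gsto1 (0.59), Gstp2 (0.47), Mgst1 (0.22) and Ugt1a7c (0.04) turned, Ugt1a7c also with the position score (0.05), and Gstp2 with DSS 2 and DSS+UA 3 left out (0.08). With 1 library left out Gstp1 ranged from -0.04 to 0.41, Gstp2 from -0.58 to 0.08 and Gstp3 from -0.03 to 1.59. The position score turned Ugt2b5 in UA+DSS against DSS (-0.40), DSS+UA against Con (1.14) and UA+DSS against DSS+UA (-2.12), and Ugt1a1 in the last (-0.24), the called values it turned. The uncalled values it turned included Ugt1a1 in DSS+UA against DSS (1.58) and against Con (0.64), Ugt1a7c in every other comparison and Gstp3 in UA+DSS against DSS (0.37) and against Con (0.76).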
